A study of Mus musculus with 2 samples.

Results

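Migratory dendritic cells were described in 2 single-cell libraries of sorted CD45+ 7-AAD- cells from MC38 tumours, grown from a mouse colon carcinoma line. A member was a kept cell with at least 1 UMI of Fscn1, at least 1 UMI of Ccr7 and at least 3 UMIs of both together. It also held at most 1 UMI of Cd3d, Cd3e and Cd3g, under 0.1% of its UMIs in Col3a1 and under 0.3% in C1qa, C1qb and C1qc. A UMI is a molecular tag that counts 1 captured RNA molecule. The rule found 245 members among 22639 kept cells, of which 104 lay in the Lyz2-icre library and 141 in the control library. The members were chosen by their UMIs of these genes, so those levels, and all comparisons of members with other cells, are descriptions.

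The study compared tumours of SPP1fl/fl-Lyz2-icre mice, in which Cre recombinase driven from the myeloid gene Lyz2 acts on a floxed Spp1 allele, with tumours of SPP1fl/fl mice, which carry the same floxed alleles without Cre. The submitters' design text names the effect of macrophage SPP1 (osteopontin) on colorectal cancer as the question. Lyz2 is active in macrophages, monocytes and neutrophils, and in dendritic cells to a lesser degree. Spp1 stood at 6.82 UMIs per 1000000 UMIs (CPM) in macrophages of the Lyz2-icre library and at 636 CPM in those of the control library, in the direction of the labels. There was 1 library of each genotype, the number of mice in each was not given, and both libraries held cells with Xist and cells with Y-linked transcripts. Genotype, animals, handling and sequencing run thus cannot be told apart, and no test between genotypes is given. Intervals are 95% and cover counting error only, and those of UMI counts are too narrow where few cells hold the UMIs.

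Dendritic cells that have taken up antigen mature, gain the chemokine receptor CCR7 and the actin-bundling protein fascin (Fscn1), and can travel to lymph nodes to prime T cells. In tumours such cells are also known as mature regulatory dendritic cells, because they carry costimulatory ligands and inhibitory ligands such as PD-L1 together. They can arise from the cDC1 lineage, which cross-presents antigen and depends on Irf8 and Batf3, or from the cDC2 lineage.

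The promoters of 3 secreted products that mark these cells are shown because the 2 chemokine genes among them are neighbours whose levels correlated across members, and because members were compared by their Il12b. Ccl22 (chr8:94745590-94751699) and Ccl17 (chr8:94810453-94812036) lie 58753 bases apart on the plus strand of GRCm38, and Il12b lies at chr11:44400063-44414033, plus strand, per GENCODE vM21. The windows hold the 250 bases before each RefSeq start (build GRCm38.p6, plus strand, 5′ to 3′), at chr8:94745434-94745683, chr8:94810203-94810452 and chr11:44399813-44400062 in the order printed.
Ccl22: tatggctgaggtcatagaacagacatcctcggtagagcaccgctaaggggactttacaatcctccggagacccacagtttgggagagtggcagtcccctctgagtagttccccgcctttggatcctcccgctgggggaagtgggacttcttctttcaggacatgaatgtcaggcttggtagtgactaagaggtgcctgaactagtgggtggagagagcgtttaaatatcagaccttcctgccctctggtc
Ccl17: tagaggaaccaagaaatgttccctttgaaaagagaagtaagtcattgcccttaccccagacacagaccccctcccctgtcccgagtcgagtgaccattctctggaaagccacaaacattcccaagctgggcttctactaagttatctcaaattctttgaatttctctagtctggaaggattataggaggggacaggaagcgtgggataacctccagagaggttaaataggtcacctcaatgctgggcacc
Il12b: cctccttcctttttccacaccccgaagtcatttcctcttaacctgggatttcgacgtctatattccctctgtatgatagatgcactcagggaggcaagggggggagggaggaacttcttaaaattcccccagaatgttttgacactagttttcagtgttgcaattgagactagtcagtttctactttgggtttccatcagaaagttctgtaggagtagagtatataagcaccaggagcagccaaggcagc
They were searched on both strands for GGGNNTTTC (kappaB) and GGAANNGAA (ETS-IRF composite), each 1 base shorter at the 3′ end than the usual form, a choice made after the longer forms had shown no match. No window held either, so no base is in capitals and the motifs did not overlap. Of 27025 genes with a window of this length, 4.35% held the first and 8.01% the second.

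The 2 libraries differed in depth. Members had a median of 4896 UMIs and 1707.5 genes in the Lyz2-icre library, against 8282 UMIs and 2363 genes in the control library, and all kept cells had medians of 6374 and 9379.5 UMIs. The member totals were 557437 UMIs in the Lyz2-icre library and 1178860 UMIs in the control library. The libraries shared 43 cell barcodes, none of which belonged to a member in either. The median mitochondrial share of members was 0.666% in the Lyz2-icre library and 1.54% in the control library, as it was 0.796% and 1.64% over all kept cells.

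The label was checked against marker genes in CPM over the pooled cells of each library. All 10 migratory dendritic markers stood more than 3-fold over the rest of the kept cells in both libraries, and their summed level was 10010.1 CPM in Lyz2-icre members and 10581 CPM in control members, against 158 and 206 CPM in the rest. Fscn1 and Ccr7 are 2 of the 10. Cd3d, Cd3e, Cd4 and Cd8b1 of the T cell list, Cd79a, Ms4a1 and Pax5 of the B cell list, and Siglech of the plasmacytoid list had no UMI in either library's members. The rule itself limited Cd3d and Cd3e. The 11 T cell markers summed to 53.8 CPM in Lyz2-icre members and 22.9 CPM in control members, against 308 and 416 CPM in the rest. Summed NK cell markers stood at 75.3 CPM in Lyz2-icre members and 54.3 CPM in control members, against 119.7 and 136 CPM in the rest. The 8 plasmacytoid markers summed to 341 CPM in Lyz2-icre members and 325 CPM in control members, against 524 and 477 CPM in the rest. Of these 8, 1 stood more than 3-fold over the rest in both libraries. The 7 markers of innate lymphoid cells summed higher in members, at 416 and 389 CPM, than in the rest, at 147 and 206 CPM. The 8 monocyte markers summed to 556 CPM in Lyz2-icre members and 259.6 CPM in control members, or to 208 and 214 CPM without 9 Lyz2-icre and 4 control members of low marker level or high macrophage marker level. The 12 macrophage markers summed to 1069 CPM in Lyz2-icre members and 1036 CPM in control members, against 26389 and 27251 CPM in a macrophage gate (C1q at 0.3% or more). The 12 include C1qa, C1qb and C1qc, which the rule limited in members and the gate required. The part of free or engulfed macrophage RNA in the members' values was not tested.

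At the edges of the rule, the lowest sum of Fscn1 and Ccr7 inside was 4 UMIs in the Lyz2-icre library (7 cells) and 5 in the control library (1 cell), no cell held 3, and 1 control cell lay outside at 2. The highest C1q share inside was 0.282% in the Lyz2-icre library and 0.299% in the control library, and the lowest outside was 0.391% and 0.323%. C1q alone kept out 17 Lyz2-icre and 45 control cells, whose median depths of 12259 and 15919 UMIs were above those of the members and whose medians of Fscn1 and Ccr7 together were 0.143% and 0.204% of UMIs, against 0.499% and 0.486% in members. Whether these cells were doublets was not tested, and no doublet caller was run.

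**Figure D1:**
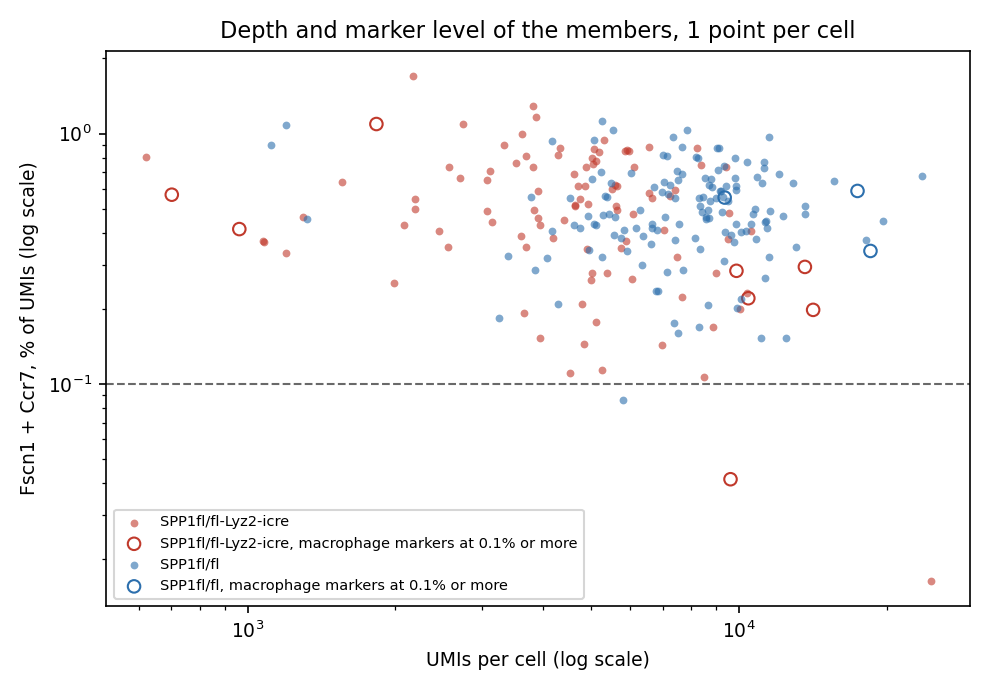
Each point is 1 member, with its UMIs on the x axis and the percent of them in Fscn1 and Ccr7 on the y axis (both log scales), red for SPP1fl/fl-Lyz2-icre and blue for SPP1fl/fl. Open rings mark cells with 8 macrophage markers at 0.1% of UMIs or more, and the cells under the dashed line at 0.1% include the deepest Lyz2-icre member, at 24551 UMIs.

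A few members stood apart. The deepest Lyz2-icre member held 24551 UMIs with only 3 of Fscn1 and 1 of Ccr7 (0.0163%), none of Ccl22 or Cacnb3, 143 UMIs of 8 cell cycle genes, 71 of Tm4sf1 and 17 of Sparc. Members under 0.1% Fscn1 and Ccr7 numbered 2 in the Lyz2-icre library and 1 in the control library. Members with 8 macrophage markers other than C1q and Apoe at 0.1% of UMIs or more numbered 8 and 3. Leaving out both kinds, an alternative chosen after the data were seen, kept 95 Lyz2-icre and 137 control members, and the log2 ratios called "without the cells standing apart" come from these.

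Set against the other dendritic cells of the same tumours, the members carried a broad programme. A cDC1 gate (at least 2 UMIs of Xcr1 and Clec9a, 50 Lyz2-icre and 48 control cells) and a cDC2 gate (Cd209a with Clec10a or Flt3 and neither cDC1 gene, 73 and 104 cells) served for comparison. Of 9493 genes at 10 CPM or more in any of the 3, 5.45% stood at least 2-fold higher in members than in both gates in both libraries, and 4.73% at least 2-fold lower. Of 29 genes listed for the migratory dendritic programme, 27 were higher and none lower, with Ccl17 and Dnase1l3 outside. The same cells supplied both the choice and these values, so the count is a description.

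The genes farthest above the rest of the kept cells were led by an unnamed gene model (Gm13546) and by Cacnb3, a calcium channel beta subunit. Cacnb3 stood at 561 CPM in the Lyz2-icre library and 760.1 CPM in the control library, against 1.89 and 6.03 CPM in the rest. Nudt17, a nudix hydrolase, stood at 185 CPM in the Lyz2-icre library and 202 CPM in the control library, against 0.573 and 1.76 CPM in the rest. Cacnb3 had a UMI in 92 of 104 Lyz2-icre and 136 of 141 control members, and Nudt17 in 52 and 97. Bcl2l14, of the Bcl2 family, stood at 233 and 391 CPM, and Il4i1, a secreted amino acid oxidase, at 465 and 522 CPM (Lyz2-icre members first). Ramp3, a partner of calcitonin-family receptors, stood at 459 CPM in the Lyz2-icre library and 539.5 CPM in the control library, against 53.4 and 42.7 CPM in the cDC2 gate. The other members of the leading 20 outside the rule's genes included Scin, Mreg, Adcy6, Strip2, Slc27a3, Sema7a, Tbc1d4, Ly75, Serpinb6b and Flt3. Over 10 points (5 gates in 2 libraries), the genes whose pattern was most like the sum of Fscn1 and Ccr7 were Nfkb2, Nae1, Uap1, Herc6 and Foxp4, with Pearson's r on log2 levels between 0.976 and 0.985. The members supplied 2 of the 10 points.

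**Figure D2:**
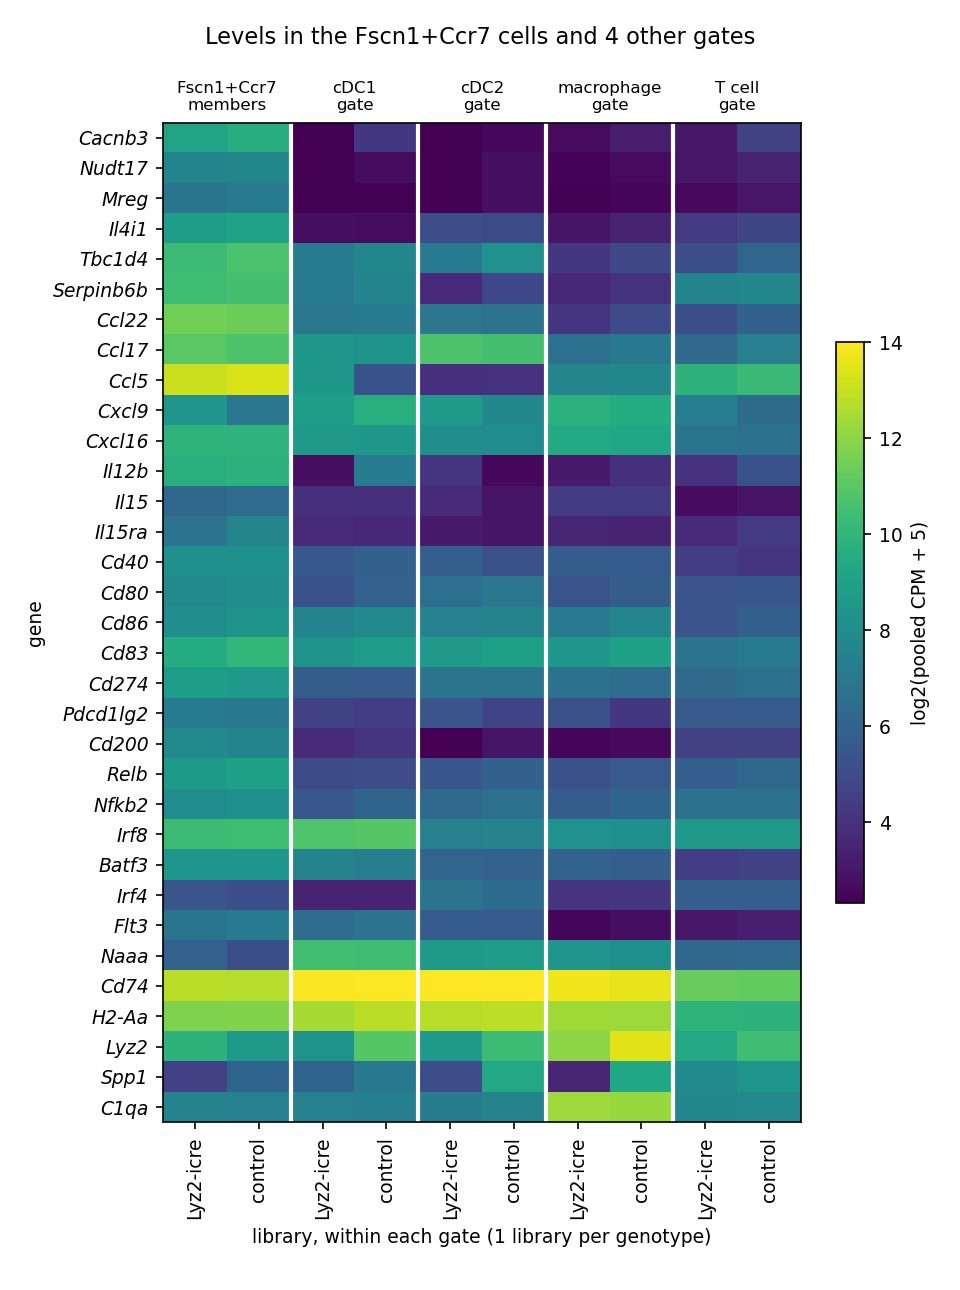
Colour gives log2(pooled CPM + 5) of each gene (rows) in 5 gates (column pairs), the Lyz2-icre library left of the control library in each pair. Cacnb3, Nudt17, Mreg and Il4i1 are bright in the members and dark in the other 4 gates, while Cd74 and H2-Aa are brighter in the cDC1 and cDC2 gates.

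The listed groups differed by role, and their counts stand beside 5.45% of all genes higher and 4.73% lower than both cDC gates. Of 19 migration and cytoskeleton genes 13 were higher than in both cDC gates and none lower, among them Marcks, a membrane-bound actin regulator (1309.6 and 1249.5 CPM in Lyz2-icre and control members) and Myo1g, a myosin. Of 14 maturation genes at the floor 10 were higher, with Cd40 at 282 and 288 CPM in the members against 42.0 and 56.7 CPM in the cDC1 gate. Relb, the alternative NF-kappaB subunit, stood at 405 and 507 CPM, against 28.0 and 28.4 CPM in the cDC1 gate and 39.0 and 56.3 CPM in the cDC2 gate. Of 27 NF-kappaB genes 11 were higher, and of 21 survival genes 9, among them Birc2 and Cflar, inhibitors of apoptosis. Of 16 regulatory genes 8 were higher and none lower, and Socs2, a suppressor of cytokine signalling, stood at 551 CPM in the Lyz2-icre library and 561 CPM in the control library, against 28.7 and 26.2 CPM in the cDC2 gate. Of 33 receptor genes 7 were higher and 4 lower, among the lower Ccr1, Ccr2 and Tnfrsf1a. Cd86 and Cd83 did not reach the fold in all 4 comparisons.

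Genes of antigen presentation on MHC class II went the other way. Of 14 listed, 7 were at least 2-fold lower in members than in both cDC gates in both libraries and 1, H2-Eb2, was higher. Among all genes 4.73% were lower and 5.45% higher by this measure. Ciita, the master regulator of the class, stood at 82.5 CPM in the Lyz2-icre library and 43.3 CPM in the control library, against 204 and 188 CPM in the cDC1 gate. H2-DMa, a peptide-loading chaperone, stood at 344 CPM in the Lyz2-icre library and 241 CPM in the control library, against 1189 and 1208 CPM in the cDC1 gate. H2-Aa, at 3469 and 3544 CPM, did not reach the fold. Of 18 genes linked to cDC1 none was higher and 5 were lower, including Naaa, a lysosomal amidase, at 59.2 and 29.7 CPM against 1399 and 1366 CPM in the cDC1 gate. Of 22 class I genes 6 were higher and 2 lower, and H2-K1 stood at 2967 and 2874 CPM, against 1283 and 1349.9 CPM in the cDC1 gate. Of 24 cell cycle genes 12 were lower and none higher.

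The first comparison between genotypes was the share of members. They made up 0.747% of kept Lyz2-icre cells (0.611 to 0.905%, 104 of 13915, exact Clopper-Pearson interval) and 1.62% of kept control cells (1.36 to 1.90%, 141 of 8724). The ratio of shares was 0.462, 0.355 to 0.600. Much of each library was macrophages, and among kept cells with C1q under 0.3% the shares were 3.44% in the Lyz2-icre library and 5.35% in the control library (ratio 0.643, 0.494 to 0.834). Among the cells of the 3 dendritic gates alone, members were 45.8% in the Lyz2-icre library and 48.1% in the control library, and the interval of that ratio included 1 (0.952, 0.732 to 1.24). Over all kept cells the cDC1 gate had a ratio of 0.653, 0.431 to 0.991 and the cDC2 gate of 0.440, 0.322 to 0.599, so all 3 dendritic gates took a lower share in the Lyz2-icre library. The cDC1 and cDC2 gates need set numbers of UMIs and were not taken at equal depth, and the Lyz2-icre library was the shallower one.

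The ratio was also taken at equal depth and by sex. With all cells drawn down to 2000 UMIs before the rule was applied, 83 of 12192 Lyz2-icre cells and 138 of 8113 control cells were members (ratio 0.400), and the same cells at full depth gave 0.453. Among cells with Xist and no Y-linked UMI the ratio was 0.460, 0.334 to 0.629. Among cells with a Y-linked UMI and no Xist it was 0.319, 0.135 to 0.696, from 10 Lyz2-icre and 23 control members. Fewer members and more cells of other types cannot be told apart from shares.

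**Figure D3:**
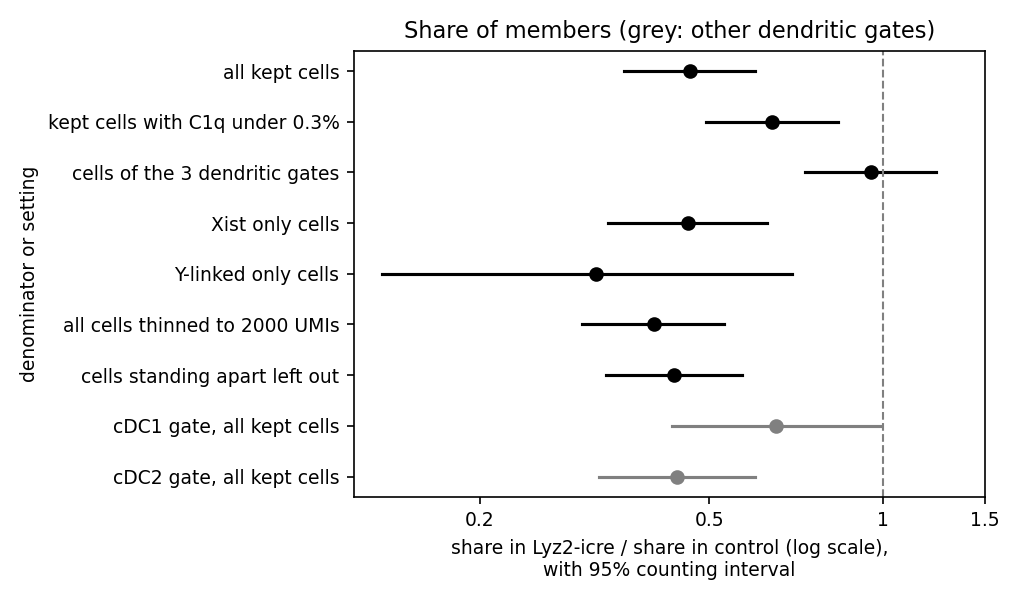
Points give the share of members in the Lyz2-icre library over that in the control library (x axis, log scale, bars 95% counting intervals) under each denominator or setting (rows), with the cDC1 and cDC2 gates in grey. The ratio is 0.462 over all kept cells and 0.952 over the 3 dendritic gates, where the bar crosses 1.

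Within the members, expression was compared by size only. Of 7913 genes at 10 CPM or more in either library, 16.2% were at least 1.5-fold higher and 13.3% at least 1.5-fold lower in Lyz2-icre members, and the median log2 ratio of all was 0.01 (5 CPM added to both). Genes under 10 CPM in both libraries were not counted. Without the cells standing apart, 12.8% of 7659 genes were higher and 16.1% lower.

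The most abundant chemokines differed by less than 1.5-fold over all members. Over the processing alternatives the log2 ratio ran from -1.83 to 0.49 for Ccl22, 0.03 to 0.50 for Ccl17 and -1.14 to -0.06 for Ccl5. Ccl22, which draws regulatory T cells and other CCR4-bearing cells, stood at 2940.2 CPM in the Lyz2-icre library and 2647 CPM in the control library (ratio 1.11, 1.05 to 1.18). It had a UMI in 97 of 104 and 130 of 141 members, and single members ran from 0 over a median of 2269 to 11465 CPM in the Lyz2-icre library and from 0 over 1829 to 14050.4 CPM in the control library, so that the ranges overlapped almost entirely. Ccl17, the other CCR4 ligand, stood at 2092 CPM in the Lyz2-icre library and 1679.6 CPM in the control library (ratio 1.25, 1.16 to 1.34). Ccl5, a chemokine that draws T cells, was the highest of the list in both, at 8591 CPM in the Lyz2-icre library and 10286 CPM in the control library (ratio 0.835, 0.808 to 0.864). Cxcl16, the membrane-bound ligand of CXCR6 on T cells, stood at 967 and 974 CPM (ratio 0.993, 0.895 to 1.10).

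Of 18 listed chemokines at the floor, 7 were at least 1.5-fold higher in Lyz2-icre members and 1, Ccl4, lower, against the 16.2% and 13.3% of all genes. The 7 were Ccl2, Ccl6, Ccl7, Ccl8, Cxcl2, Cxcl3 and Cxcl9. Of 17 at the floor without the cells standing apart, 4 were higher and 2 lower, against 12.8% and 16.1% of all genes. Without the cells standing apart the log2 ratio of Cxcl2 was -0.41, against 0.67 in all members, and that of Ccl2 was 0.10, against 1.19. Both chemokines stood higher in the macrophage gate, where Cxcl2 was at 5792 CPM in the Lyz2-icre library and 6612 CPM in the control library. Cxcl9, the interferon-gamma-induced ligand of CXCR3 on T cells, stood at 335 CPM in the Lyz2-icre library and 115 CPM in the control library (ratio 2.91, 2.32 to 3.65). Without those cells its log2 ratio was 1.55. It had log2 ratios of 1.37 in members with Xist only and 1.39 in members with Y-linked UMIs only, with a UMI in 27 of 104 and 35 of 141 members. The single cell with most UMIs held 23.5% of them in the Lyz2-icre library and 21.3% in the control library. After thinning to 2000 UMIs, 19.1% of Lyz2-icre members (11.8 to 28.6%) and 9.42% of control members (5.11 to 15.6%) held a UMI, and the 2 intervals overlapped. The shares were 8.98% and 7.52% in the T cell gate (median depth 3161 and 4734 UMIs), taken as background, and 43.4% and 30.9% in the macrophage gate (6936 and 10202 UMIs). The share of control members was thus close to background. In the rest of the kept cells the log2 ratio of Cxcl9 was 0.43. Of 17 interferon-gamma response genes at the floor, a list that holds Cxcl9, 5 were higher and 1 lower (median log2 ratio 0.22, against 0.28 in the rest of the kept cells), with Cxcl10 at 73.6 and 71.3 CPM. The lower gene was Gbp8, a guanylate-binding protein. Of 17 without the cells standing apart, 3 were higher and 1 lower, set against 12.8% and 16.1% of all genes.

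Of the cytokines, Il12b encodes the p40 subunit of IL-12 and IL-23, which primes type 1 T cell responses. It stood at 784 CPM in the Lyz2-icre library and 911 CPM in the control library (ratio 0.860, 0.768 to 0.963), with a UMI in 49 of 104 and 91 of 141 members. Thinned to 2000 UMIs, 34.0% of Lyz2-icre members (24.6 to 44.5%) and 46.4% of control members (37.9 to 55.1%) held a UMI, against 0.359% and 0.762% in the macrophage gate. The 2 intervals overlapped. Over the processing alternatives the log2 ratio of Il12b ran from -1.84 to 0.03. Il15, which sustains CD8 T and NK cells, stood at 71.8 and 85.7 CPM, and its presenting receptor Il15ra at 106 CPM in the Lyz2-icre library and 192 CPM in the control library (ratio 0.552, 0.407 to 0.738). Il15ra had log2 ratios of -0.83 in all members, -0.83 without the cells standing apart, -0.90 in Xist-only and -0.80 in Y-only members. Thinned to 2000 UMIs, 18.1% of Lyz2-icre members (10.9 to 27.4%) and 28.3% of control members (20.9 to 36.5%) held an Il15ra UMI, with overlapping intervals. Thinned to 1000 UMIs, the shares were 13.9% and 14.2%. Of 12 cytokine genes at the floor, 3 were higher (Il1a, Il1rn and Csf1) and 1 lower (Tnf), against 16.2% and 13.3% of all genes. Of 10 without the cells standing apart, 1 was higher and 1 lower, against 12.8% and 16.1% of all genes. Il1a and Csf1 rested on 9 and 6 UMIs in Lyz2-icre members.

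Costimulation genes had a median ratio below that of all genes, and checkpoint genes a median near it. Of 14 maturation genes at the floor none was 1.5-fold higher and 4 were lower, with a median log2 ratio of -0.39, or -0.21 with 3 lower without the cells standing apart. The median of these genes in the rest of the kept cells was -0.33, close to that in members. The 4 were Icosl, Tnfsf4, Il15ra and Slamf1, and Tnfsf4 and Slamf1 rested on 10 and 9 UMIs in Lyz2-icre members. Cd40, the receptor for helper T cell signals, had a ratio of 0.979, 0.805 to 1.19, and Cd80, a CD28 ligand, of 0.896, 0.723 to 1.11. Cd83 stood at 757 CPM in the Lyz2-icre library and 1046 CPM in the control library (ratio 0.724, 0.647 to 0.809). Cd274, encoding PD-L1, stood at 465 CPM in the Lyz2-icre library and 382 CPM in the control library (ratio 1.22, 1.04 to 1.42), and Pdcd1lg2, encoding PD-L2, at 129 and 128 CPM (ratio 1.01, 0.751 to 1.34). Of 16 regulatory genes 1 was higher (Lgals9, galectin-9, with 17 and 11 UMIs) and 1 lower (Arg2, with 1 and 15), and the median was 0.07. Of 15 without the cells standing apart, 3 were higher and none lower, with a median of 0.22. Among all genes 16.2% were higher and 13.3% lower, or 12.8% and 16.1% without those cells.

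None of 19 migration genes and, of 29 programme genes, 1 in each direction reached 1.5-fold, against 16.2% higher and 13.3% lower of all genes. The 2 were Insm1, a zinc-finger factor (50.2 and 25.4 CPM), and Bcl2l14 (233 and 391 CPM, ratio 0.596, 0.487 to 0.726). Fabp5, a fatty acid chaperone, stood at 4566 CPM in the Lyz2-icre library and 3503 CPM in the control library (ratio 1.30, 1.24 to 1.37). Of 27 NF-kappaB genes 1 was higher, Tnip3 (551 and 361 CPM, ratio 1.52, 1.31 to 1.77), and 1 lower, Nfkbid (37.7 and 69.6 CPM). Tnip3 had a log2 ratio of 0.67 without the cells standing apart.

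Immediate early genes were mixed. Of 19 in the immediate early and heat shock list, 4 were higher and 5 lower, against 16.2% and 13.3% of all genes. Without the cells standing apart, 12.8% of all genes were higher and 16.1% lower. The 5 lower ones were Fosb, Jun, Egr1, Ier5 and Btg2, with Jun at 237 CPM in the Lyz2-icre library and 389 CPM in the control library (ratio 0.610, 0.498 to 0.741) and Ier5 at 352 CPM in the Lyz2-icre library and 593 CPM in the control library (ratio 0.593, 0.504 to 0.696). The 4 higher ones, Hspa1a, Hspa1b, Dnajb1 and Hsph1, all encode heat shock proteins or their partners, and Hspa1b had 85.3% of its Lyz2-icre UMIs in 1 cell. Such genes also respond to tissue digestion, and genotype and handling cannot be told apart. Of 13 class II genes at the floor 2 were higher (Ciita and H2-DMb1) and none lower, or 1 and none without the cells standing apart. Of 19 antigen uptake and pattern recognition genes 9 were higher and 1 lower, with a median log2 ratio of 0.49, or 0.31 with 7 higher and 1 lower without the cells standing apart. They included Clec4n, encoding dectin-2, at 82.5 CPM in the Lyz2-icre library and 27.1 CPM in the control library (ratio 3.04, 1.89 to 4.93), and Msr1, a scavenger receptor, at 46.6 and 18.7 CPM. Both stood higher in the macrophage gate, at 418 and 303 CPM in the Lyz2-icre library, and the part of macrophage RNA in them was not tested.

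Cell cycle genes had the highest list median. Of 19 at the floor 15 were at least 1.5-fold higher in Lyz2-icre members and none lower (median log2 ratio 1.07), against 16.2% and 13.3% of all genes. The deepest Lyz2-icre member held 143 of the 246 UMIs of 8 cycle genes in that library's members. Without the cells standing apart 9 of 15 were higher (12.8% of all genes), with a median of 0.73. Members with at least 5 of these UMIs numbered 5 in the Lyz2-icre library and 1 in the control library. Hmgb2, a chromatin protein of cycling cells, was spread over more members and stood at 380.3 CPM in the Lyz2-icre library and 186 CPM in the control library (ratio 2.05, 1.69 to 2.48). It had a UMI in 52 of 104 Lyz2-icre and 88 of 141 control members. These values cover all members, the deepest Lyz2-icre member among them.

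The remaining lists went both ways. Among all genes 16.2% were higher and 13.3% lower, or 12.8% and 16.1% without the cells standing apart. Of 31 receptor genes at the floor 3 were higher (Ccr2, Cx3cr1 and Csf1r) and 5 lower (Ccr1, Ccr6, Il10rb, Il15ra and Ifnar2). Csf1r, the macrophage growth factor receptor, stood at 62.8 CPM in the Lyz2-icre library and 31.4 CPM in the control library, against 528 and 561 CPM in the macrophage gate. Of 20 type I interferon genes 5 were higher and 4 lower, with Ifi27l2a at 296 CPM in the Lyz2-icre library and 171 CPM in the control library (ratio 1.73) and Usp18, a brake on the pathway, at 7.18 and 28.0 CPM (ratio 0.256, 0.0660 to 0.721). None of 25 lineage transcription factors reached 1.5-fold, and Irf8 stood at 1275 and 1342 CPM and Batf3 at 352 and 349 CPM. Of 15 cDC2-linked genes 5 were higher and 2 lower, with Sirpa, an inhibitory receptor, at 89.7 and 48.4 CPM (ratio 1.86, 1.24 to 2.76). Of 8 cDC1-linked genes at the floor 2 were higher (Naaa and Ppt1) and 1 lower (Clec9a). Of 20 survival genes 1 was higher (Bcl2) and 2 lower (Bcl2l11 and Bbc3, which promote cell death), and none of these 3 had an interval that left out 1. Without the cells standing apart, 2 receptor genes were higher and 6 lower, 1 transcription factor lay in each direction, 5 cDC2-linked genes were higher and 4 lower, and 2 NF-kappaB genes were higher and 1 lower.

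Metabolic genes were mixed as well, beside 16.2% higher and 13.3% lower among all genes, or 12.8% and 16.1% without the cells standing apart. Of 23 glycolysis and hypoxia genes 3 were higher (Hk2, Ldha and Mif) and 2 lower. Mif, a cytokine induced by low oxygen, stood at 318 CPM in the Lyz2-icre library and 173 CPM in the control library (ratio 1.83, 1.49 to 2.26). The 2 lower ones were Pfkfb3, a regulator of glycolysis, at 199 CPM in the Lyz2-icre library and 304 CPM in the control library (ratio 0.656, 0.525 to 0.813), and Ndrg1, at 178 and 277 CPM (ratio 0.642, 0.508 to 0.807). Of 21 lipid and lysosome genes 5 were higher and 2 lower, and of 19 without the cells standing apart 1 was higher and 3 lower. Ctsl, a lysosomal protease, had a log2 ratio of 0.85 in all members and -0.48 without those cells.

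Ranked over all genes that met a rule on level, count and per-cell mean, 105 were higher and 153 lower in Lyz2-icre members. The 12 highest were Tm4sf1, Cald1, Ube2c, Top2a, Ly6a, Gzmc, Emp1, Hspa1b, Plac8, Lmna, Lgals1 and Cxcl9. In 9 of these 12 a single Lyz2-icre cell held over 50% of the UMIs. Tm4sf1, a membrane protein of epithelial and tumour cells, had 72 UMIs in Lyz2-icre members, of which 1 cell held 98.6%, and 1 UMI in control members, and its log2 ratio was 4.52 in all members and 0.27 without the cells standing apart. Gzmc, a granzyme of cytotoxic lymphocytes, had 344 UMIs in 3 Lyz2-icre members and 154 UMIs in 4 control members. Lgals1, galectin-1, had a log2 ratio of 1.61 in all members and 0.46 without those cells. The exceptions were Lmna, Lgals1 and Cxcl9. The same ranking in the remaining members, made after the data were seen, put Gzmc, Hspa1b, Hspa1a, Cxcl9 and Top2a first, followed by Fam162a, Lmo4, Mrpl28, Zdhhc21, Znhit1, Lrp8 and Plcl2, and 59 of its 82 higher genes had also met the rule in all members.

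Among the 12 lowest were S100a9, S100a8, Rrad, Afap1, Npr1, Nbdy, Tubb2b, Kdm3b, Fabp4, Phyh and Tbc1d9. S100a9, a calcium-binding protein of neutrophils, had no UMI in Lyz2-icre members and 331 in 15 control members, 1 of which held 55.0% of them. Set against a floor of 3 UMIs over the Lyz2-icre members, it was 52.2-fold lower. The floor is a convention, and the interval of the ratio ran from 0 to 0.0237. S100a8, its partner, had 2 and 120 UMIs (ratio 0.0352, 0.00422 to 0.130). In the rest of the kept cells their log2 ratios were -3.04 and -3.06, and the 8 neutrophil markers summed to 12.6 CPM in Lyz2-icre members and 417 CPM in control members, with S100a9, Cxcr2, Retnlg and G0s2 at 0 in the Lyz2-icre members. The part of neutrophil RNA in these values was not tested. In the other genes named here no control cell held over 30% of the UMIs. Npr1, the receptor of atrial natriuretic peptide, stood at 34.1 CPM in the Lyz2-icre library and 92.5 CPM in the control library (ratio 0.369, 0.214 to 0.604), with 16 and 55 members holding a UMI and log2 ratios of -1.13 in Xist-only and -2.10 in Y-only members. Rrad, a small GTPase of the RGK group, stood at 21.5 and 64.5 CPM (ratio 0.334, 0.165 to 0.618). In the rest of the kept cells the log2 ratios of Npr1 and Rrad were 0.03 and -0.16. The genes of both groups were chosen for their size among many genes, so their ratios are descriptions and tend to be too large.

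**Figure D4:**
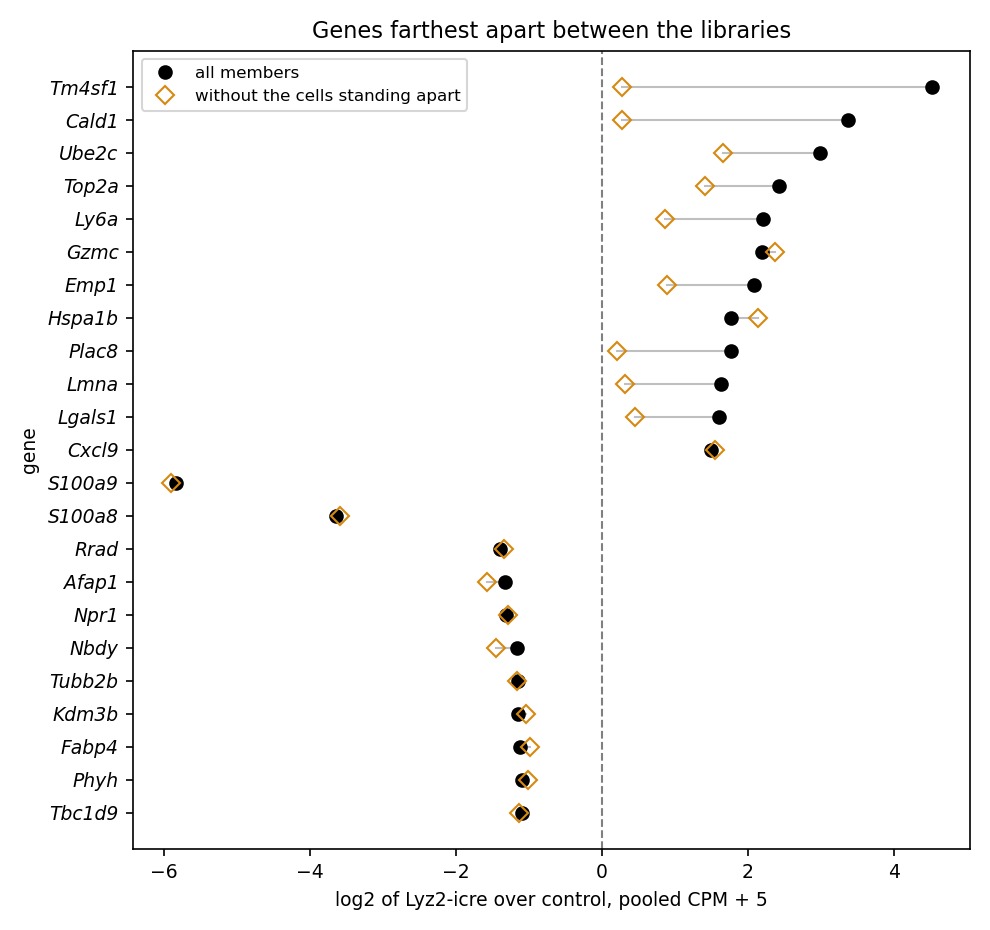
The x axis gives the log2 ratio of Lyz2-icre over control members (pooled CPM + 5) for the 12 highest and 11 of the 12 lowest genes (rows), as black points for all members and open diamonds without the cells standing apart. Tm4sf1 and Cald1 move close to 0 between the 2, while the points of Cxcl9 and Npr1 lie close together.

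Spp1, the gene targeted in the study, had 11 UMIs in 3 Lyz2-icre members and 75 UMIs in 29 control members, at 19.7 and 63.6 CPM (ratio 0.310, 0.149 to 0.587). Thinned to 2000 UMIs, 3.19% of Lyz2-icre members and 6.52% of control members held a UMI, against 0.587% and 37.0% in the macrophage gate and 11.2% and 19.3% in the T cell gate. The members' control share lay below both control gates, and their Lyz2-icre share lay between those of the 2 Lyz2-icre gates. The source of these UMIs was not tested. Which exons were floxed was not given, so a 3-prime tag may lie outside the deleted part. Lyz2, whose locus drives the Cre, stood at 938 CPM in the Lyz2-icre library and 399 CPM in the control library (523 UMIs in 45 members and 470 in 132). Its log2 ratio was 1.22 in all members and turned to -0.55 without the cells standing apart. Of 7 genes in the osteopontin and receptor list, Itgb5 was higher and Spp1 lower, against 16.2% and 13.3% of all genes. The receptor gene Cd44 had a ratio of 1.31, 1.05 to 1.63.

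Members differed among themselves in the genes of the cDC lineages. At 2000 UMIs per cell, 88.3% of 94 Lyz2-icre and 90.6% of 138 control members held a UMI of any of 8 cDC1-linked genes, almost all through Irf8 and Batf3. Without those 2 factors the shares were 12.8% and 10.9%. Any of 8 cDC2-linked genes was seen in 44.7% and 41.3%. Sirpa, Klf4 and Mgl2 were the most frequent, in 19.1%, 13.8% and 10.6% of Lyz2-icre members and 10.1%, 18.8% and 10.9% of control members. In the T cell gate they were in 7.14%, 15.9% and 7.96% of Lyz2-icre cells and 6.37%, 13.4% and 5.88% of control cells. Cd209a, Clec10a and Itgam were in 0%, 1.06% and 2.13% of Lyz2-icre members and 0.725%, 2.17% and 3.62% of control members. The lineage receptors were nearly absent, with Xcr1 in 2.13% and 1.45% of members and Clec9a in 1.06% and 3.62%, against 48% and 36.2% for Xcr1 in the cDC1 gate, which it helped to define. Irf8 had a UMI in 77.7% and 80.4% of members, against 38.9% and 38.6% in the macrophage gate, and Batf3 in 47.9% and 50%, against 11.1% and 9.76%.

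Members with an Il12b UMI at this depth, 32 of 94 in the Lyz2-icre library and 64 of 138 in the control library, were set beside those without, a split made after the data were seen and given without a test. Irf8, the factor on which cDC1 cells depend, was higher in the members with Il12b, with ratios of 2.08, 1.64 to 2.64 in the Lyz2-icre library and 1.77, 1.43 to 2.21 in the control library. Bcl2l14 was higher by ratios of 6.16, 3.06 to 13.5 in the Lyz2-icre library and 3.63, 2.22 to 6.16 in the control library. S100a4, a calcium-binding protein at 2116 and 1671 CPM in the cDC2 gate and 228 and 252 CPM in the cDC1 gate, was lower, with ratios of 0.494, 0.379 to 0.638 and 0.506, 0.403 to 0.632. S100a4 is not specific to cDC2 cells, and at this depth 84.5% of Lyz2-icre and 82.5% of control cells in the T cell gate held a UMI. Fabp5 was lower too, with ratios of 0.654, 0.564 to 0.756 and 0.487, 0.423 to 0.560. Ccr7, which helped to choose the cells, had ratios of 1.14 and 1.15, and the intervals for Cd274 and Cd40 included 1 in both libraries. Batf3 went opposite ways, with ratios of 0.564, 0.301 to 0.998 in the Lyz2-icre library and 1.65, 1.10 to 2.51 in the control library. The intervals for cDC1-linked Naaa, which had few UMIs, and for cDC2-linked Mgl2 and Tnip3 included 1 in both libraries. Whether members with Il12b came from the cDC1 lineage was not tested.

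**Figure D5:**
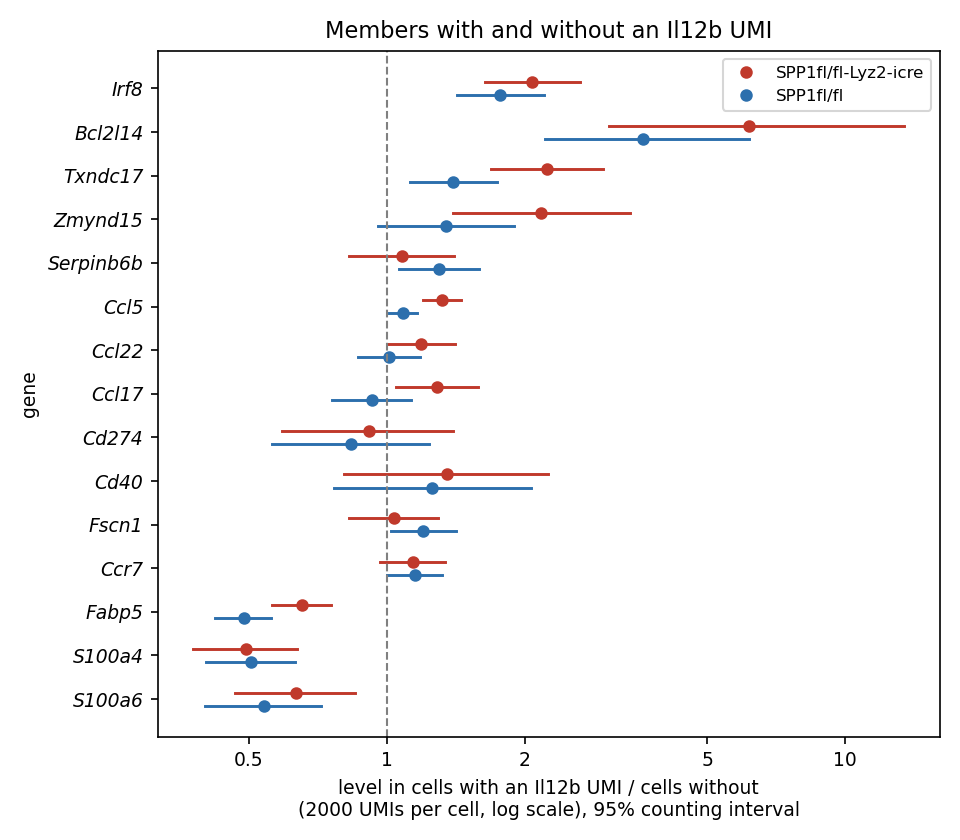
The x axis (log scale) gives each gene's level in members with an Il12b UMI over that in members without, at 2000 UMIs per cell, red for SPP1fl/fl-Lyz2-icre above blue for SPP1fl/fl, with 95% counting intervals. Irf8 and Bcl2l14 lie to the right of 1, and Fabp5, S100a4 and S100a6 to the left, in both libraries.

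The 2 CCR4 ligands went together across members. Spearman's rho between Ccl17 and Ccl22 at 2000 UMIs per cell was 0.45 in the Lyz2-icre library and 0.50 in the control library, over 94 and 138 cells of 1 library each, and that between Fabp5 and Ccl17 was 0.48 in the Lyz2-icre library and 0.34 in the control library. Il12b had a rho of -0.36 in the Lyz2-icre library and -0.40 in the control library with S100a4, and of 0.34 in the Lyz2-icre library and 0.41 in the control library with Irf8. These are descriptions over cells that share a library, and genes were listed by the weaker of the 2 libraries' values out of 1403 genes. By that order Irf8 and S100a4 came first among the positive and negative values for Il12b. The Il12b split used the same cells, so its ratios for Irf8 and S100a4 are not separate evidence.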

How the data were processed

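The deposited values were UMI counts per gene and cell, 1 matrix for each of 2 libraries, made by the authors with Cell Ranger 8.0.1 per the file headers, from a 3-prime v3 kit per the labels' protocols. The submitters' processing notes name bcl2fastq 5.0.1 and mm10, and the annotation release is not given in the sources used here. The counts were raw and not normalized. The libraries held 98275787 UMIs in the Lyz2-icre library and 88529822 UMIs in the control library. Kept cells had 300 or more genes, 500 or more UMIs and a mitochondrial share of 15% or less, which removed 29 Lyz2-icre and 430 control barcodes. Doublets were limited only by the gate, and no caller was run.

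Counts of a gate were pooled and scaled to CPM. Log2 ratios had 5 CPM added, and calls used the plain ratio at 1.5-fold with 10 CPM in the higher library, or 2-fold over both cDC gates in both libraries. Ratios have exact conditional binomial 95% intervals and shares have Clopper-Pearson intervals. Floors are 3 UMIs. Shares of cells with a UMI were taken after each cell was drawn down to 2000 UMIs, which left 94 of 104 Lyz2-icre and 138 of 141 control members.

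The genes named between genotypes were the 12 highest and 12 lowest log2 ratios at 50 CPM and 30 UMIs in the higher library, at least 1.5-fold in pooled and mean per-cell CPM, and at a level at least 0.2 of that in the highest other gate. Mitochondrial, ribosomal, haemoglobin, receptor-segment, Xist, Y-linked and unnamed genes were left out, and 1 gene that met the rule is not reported here. Genes of lists were named from the highest and lowest ratios of each list. The members, lists and rules were chosen with earlier results of these data known. The pooling, ratio and interval steps were tested on simulated counts, in which all cells of a library followed 1 profile, so variation between cells was not covered. The calls at 1.5-fold were not part of that test. Python 3.11.15, numpy 2.4.6, scipy 1.17.1, pandas 2.3.3 and matplotlib 3.10.9 were used.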

Additional observations from a re-analysis of the deposited data

Results flagged for a closer look

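In 7 genes of the 2 rankings (all members, and members without the cells standing apart) the log2 ratio of Lyz2-icre over control members had opposite signs, at least 1.5-fold each way, in members with Xist UMIs only (70 Lyz2-icre and 102 control cells) and in members with Y-linked UMIs only (10 and 23 cells). The difference between the sexes was not tested. Several of these ratios rested on few UMIs or cells. S100a8 had 2 UMIs in all Lyz2-icre members, and Gzmc had UMIs in only 3 Lyz2-icre and 4 control members. For Hspa1a 1 cell held 90.3% of the Lyz2-icre UMIs. For Gzmc the log2 ratio was 4.97 in Xist-only members and -1.01 in Y-only members, for Hspa1a 2.11 and -2.83, and for Lrp8 1.19 and -1.35. For S100a8 it was -4.26 in Xist-only members and 1.63 in Y-only members, and for Tubb2b -1.53 and 1.17. For Ifitm1 it was -2.20 in Xist-only members and 2.06 in Y-only members, and for Rab1b -1.44 and 0.93. In Ly6a (-0.15 in Xist-only members and 5.03 in Y-only members), Tbc1d9 (-1.30 and 0.20) and Znhit1 (1.29 and -0.16) the signs also differed, with 1 of the 2 values under 1.5-fold. The deepest Lyz2-icre member, which stood apart, was among the Y-only cells. It held 71 of the 72 Lyz2-icre UMIs of Tm4sf1, whose log2 ratio was 0.33 in Xist-only and 7.22 in Y-only members.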

How the results depend on the processing

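No paired analysis was possible because each genotype had 1 library, and for the same reason no replicate could be left out. The share ratio of members was 0.462 over all kept cells, 0.643 over cells with C1q under 0.3% and 0.319 among Y-only cells, and it stayed under 1 in every alternative run. In place of 1285 genes higher and 1051 lower, Y-only members gave 4525 and 2353, and members without a filter on low genes gave 3677 and 4102. The 10 Y-only Lyz2-icre members include the deepest member, which stood apart. Members thinned to 2000 UMIs gave 2128 lower. Adding 1 or 20 CPM cannot alter counts made on the plain ratio. The log2 ratio of Ly6a was -0.15 in Xist-only members. In Y-only members those of Gzmc, S100a8, Tubb2b and Tbc1d9 were -1.01, 1.63, 1.17 and 0.20. That of Lyz2 was -0.61 without members high in macrophage markers and -0.55 without all members standing apart, alternatives chosen after the data were seen. The cause of these shifts was not tested. Of the other single-gene values, list medians and shares of cells under each alternative, 766 lay within the counting interval or the width set for a list, and 127 lay outside it. No called value among these changed sign. The number of UMIs limits genes at low levels, and 1 library per genotype limits every comparison between genotypes.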
